A study of Mus musculus with 6 samples.

Results

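The 9 genes described here, of the 13931 genes in the deposited tables, are Blmh, which encodes bleomycin hydrolase, the enzyme that inactivates the drug, and Aptx, Tdp1, Tdp2, Apex1, Xrcc1, Polb, Lig3 and Parp1, whose products detect, clean or close broken DNA ends. They were chosen by name, from what their products do, and each symbol matched 1 gene ID. Their transcripts were measured by RNA sequencing of alveolar epithelial type 2 cells (AT2 cells), which make the surfactant of the lung, prepared from C57BL/6 mice. There were 3 libraries from mice given bleomycin repeatedly, labelled with a dose of 1 U/kg, and 3 from mice given PBS repeatedly, with 3 mice assigned to each group. No further allele or agent is named for either group, and the sources used here leave out the animals' age, the isolation method, the route and number of doses and when the lungs were taken.

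Bleomycin cuts DNA by attacking the sugar of the backbone, which leaves single-strand and double-strand breaks whose ends often carry a sugar fragment, phosphoglycolate, or an oxidised abasic site. Such ends cannot be extended or joined until an enzyme has removed the block, after which a polymerase fills the gap and a ligase closes it. Bleomycin hydrolase acts before any of this, by cleaving an amide bond of the drug in the cytosol, and the lung is known as an organ with little of its activity.

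Of the 9 genes, Parp1 and Tdp2 rose with bleomycin and none fell, while Blmh and 5 others did not pass the test and Aptx was too low to be tested. Parp1 averaged 28.7 ± 2.10 FPKM with bleomycin and 9.88 ± 0.935 FPKM with PBS (mean ± SD, n = 3 each), a ratio of means of 2.90. Tdp2 averaged 13.0 ± 0.740 FPKM with bleomycin and 7.43 ± 0.0958 FPKM with PBS, a ratio of means of 1.75. FPKM divides fragments by transcript length and library size, so levels of different genes can be compared on it, as far as the listed transcripts and their lengths hold. Tests were made with limma on log2(FPKM + 1) over the 12326 genes that reached 1 FPKM in 3 or more libraries, and a call needs a Benjamini-Hochberg adjusted p under 0.05. The calls were 2 of 8 tested genes, beside 22.5% of all tested genes called in either direction, 15.2% called higher and 7.34% called lower, so their share was near that of all genes. None of the 8 fell at an unadjusted p under 0.05 either, but the share of all genes that did is not given here, so nothing follows from this count. The median log2 fold change of the 8 was 0.24, beside 0.09 for all tested genes, and 7 of the 8 values were above 0, beside 56.1% of all tested genes. With equal library medians 5 of the 8 were above 0, beside 45.1% of all genes, and with quantile normalization 4, beside 44.8%.

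**Figure D1:**
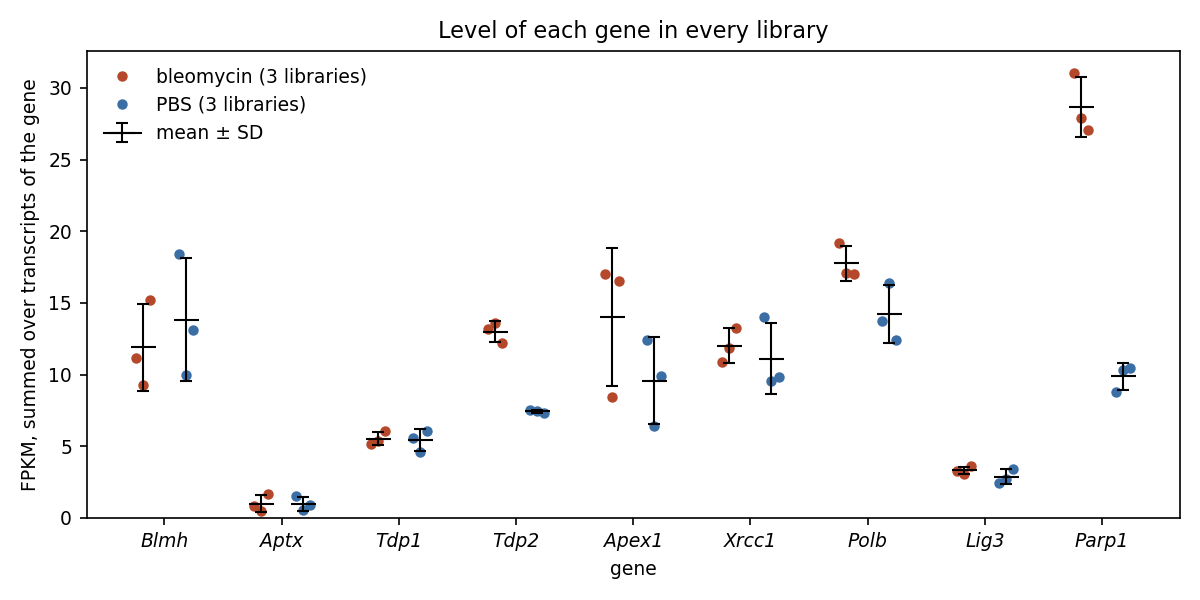
Gene-level FPKM (vertical axis) of the 9 genes (horizontal axis) in each library, with bleomycin libraries in red left of PBS libraries in blue, and bars for the mean ± SD of 3 libraries. Parp1 lies between 27.1 and 31.1 FPKM in the bleomycin libraries and between 8.80 and 10.5 FPKM in the PBS libraries, and the Blmh values of both groups overlap.

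The preparations differed in the markers they held. Of 13 AT2 markers 12 fell, with a summed level of 3862 to 10735 FPKM in the bleomycin libraries and 19210 to 27660 FPKM in the PBS libraries. Sftpc, of surfactant protein C, averaged 4569 ± 1920 FPKM with bleomycin and 16103 ± 3941 FPKM with PBS (limma adjusted p = 0.0349, 0.0462 to 0.0968 without 1 library), with a log2 fold change of -1.90, or -0.53 with quantile normalization (adjusted p = 0.449), and this defining marker was high in every library. None of 6 pan-epithelial markers passed (4 fell at an unadjusted p under 0.05), and Epcam, the epithelial adhesion molecule, averaged 23.7 ± 9.69 FPKM with bleomycin and 47.5 ± 5.58 FPKM with PBS. Of 6 pan-leukocyte markers 5 rose (summed 769.6 to 1219 FPKM with bleomycin, 27.6 to 47.2 FPKM with PBS), and so did all 8 T and NK cell markers (418.9 to 822.7 against 6.80 to 17.8 FPKM), all 6 of B and plasma cells (445.1 to 887.0 against 13.5 to 24.8 FPKM) and all 5 of neutrophils (401.2 to 583.9 against 9.16 to 30.8 FPKM). Of 7 macrophage and monocyte markers 6 rose (139.1 to 312.4 against 14.3 to 16.5 FPKM), as did all 8 endothelial ones (281.4 to 529.5 against 26.9 to 29.0 FPKM), of which Cldn5 was listed at 0 in all PBS libraries. Of 12 tested markers of cycling cells 9 rose (summed over 13 listed, 91.7 to 137.3 against 47.9 to 50.5 FPKM), and of 8 fibroblast and smooth muscle markers 4 fell (469.0 to 1144 against 1850 to 2556 FPKM). Other than Cldn5, no marker of these lists was at 0 in all libraries of a group. Cd3d, Cd3e, Lck, Cxcr2, Adgre1, Marco, Emcn, Cldn5, Ccnb1 and Cdk1 were under 1 FPKM in every PBS library. They were tested only through the bleomycin libraries, so a rise was the only call open to them. In such bulk samples, fewer cells of a type and less RNA per cell cannot be told apart, and the part of these markers in the results below was not tested.

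Blmh encodes a cytosolic cysteine peptidase of the papain family and is the gene most directly tied to the drug. It measured 11.2, 9.29 and 15.2 FPKM in bleomycin replicates 1, 2 and 3, against 18.4, 10.002 and 13.1 FPKM in PBS replicates 1, 2 and 3. The groups overlapped, the lowest bleomycin and the lowest PBS library lay close together, and PBS replicate 1 held the highest value of all. The group means were 11.9 ± 3.03 FPKM with bleomycin and 13.8 ± 4.26 FPKM with PBS (SD, n = 3 each). The log2 fold change was -0.19 ± 0.27 (SE, limma adjusted p = 0.658), with a 95% interval of -0.84 to 0.46. This interval holds both no change and a fall of 0.84 on the log2 scale, so equal expression is not shown. Without PBS replicate 1 the log2 fold change was 0.025, of the opposite sign.

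The gene lies on mm10 chromosome 11 from 76945504 to 76987379, plus strand (ENSMUSG00000020840.10), and 1 transcript is listed. The window around its RefSeq start is shown because Blmh is the drug's own enzyme, with the motif matches in capitals, 5′ to 3′ on the plus strand of GRCm38.p6 (chr11:76945406-76945705):
Blmh: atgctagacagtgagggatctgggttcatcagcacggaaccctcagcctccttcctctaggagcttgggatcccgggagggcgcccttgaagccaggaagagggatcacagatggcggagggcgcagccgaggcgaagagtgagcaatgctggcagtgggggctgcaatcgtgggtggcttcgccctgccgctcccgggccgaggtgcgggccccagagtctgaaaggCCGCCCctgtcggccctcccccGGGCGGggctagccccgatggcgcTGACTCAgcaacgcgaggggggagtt
Of 8 motifs searched on both strands, 2 have matches here: the GC box GGGCGG (2 matches) and the AP-1 motif TGANTCA (1 match). Of 32851 RefSeq windows of the same length, 300 bases from 250 before to 50 after a start, 35.7% hold the GC box and 7.81% the AP-1 motif. The matches are letters only, and the listed transcript starts 152 bases before the RefSeq start.

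By the root mean square difference of centred log2(FPKM + 1) over the 6 libraries, the genes most like Blmh among 7954 others with a mean of 5 FPKM or more were Tysnd1 (0.0894), Zfp385a (0.0949), Fam213b (0.0980), Bckdhb (0.0984) and Mrpl4 (0.109). Tysnd1 measured 5.35, 4.48 and 7.88 FPKM in bleomycin replicates 1, 2 and 3, against 9.38, 5.85 and 6.31 FPKM in PBS replicates 1, 2 and 3. Like Blmh, it was lowest in replicate 2 of each group and highest in PBS replicate 1, a likeness for which it was picked.

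Among the enzymes that bind or unblock ends, Parp1 changed most. Its product, poly(ADP-ribose) polymerase 1, binds strand breaks within moments and builds chains of ADP-ribose that bring in XRCC1 and its partners. Parp1 measured 31.1, 27.9 and 27.1 FPKM in bleomycin replicates 1, 2 and 3, against 8.80, 10.4 and 10.5 FPKM in PBS replicates 1, 2 and 3. The groups did not overlap, and the lowest bleomycin library was well above the highest PBS library. The log2 fold change was 1.45 ± 0.15 (SE, limma adjusted p = 0.00102), with a 95% interval of 1.10 to 1.80. Larger log2 fold changes were found for 973 of the 12326 tested genes, or 7.89%. Groups without overlap were common: 43.6% of tested genes had them, 27.2% with bleomycin higher, beside 3 of these 8, Parp1, Tdp2 and Polb, all higher. With libraries scaled to equal medians, which put the median of all genes at -0.07 in place of 0.09, the log2 fold change of Parp1 was 1.27 (adjusted p = 0.00246), and it passed under each of the 16 alternatives.

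Parp1 lies on mm10 chromosome 1 from 180568929 to 180601254, plus strand (ENSMUSG00000026496.11), with 1 listed transcript. The window around its RefSeq start (GRCm38.p6, chr1:180568641-180568940, plus strand) is shown as that of the gene with the largest change here, with motif matches in capitals:
Parp1: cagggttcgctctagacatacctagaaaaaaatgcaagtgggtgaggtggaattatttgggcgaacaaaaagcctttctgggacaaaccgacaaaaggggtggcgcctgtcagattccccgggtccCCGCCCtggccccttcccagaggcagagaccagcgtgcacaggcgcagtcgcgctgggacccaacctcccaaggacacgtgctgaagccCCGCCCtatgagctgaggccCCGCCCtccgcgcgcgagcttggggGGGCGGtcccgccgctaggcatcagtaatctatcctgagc
Of the 8 motifs, only the GC box GGGCGG was found, at 4 places, 3 of them as its reverse complement CCGCCC. Of the 32851 windows, 5.49% hold it 4 times or more. The other 7, searched on both strands, were the CCAAT box CCAAT (37.4% of windows), an ETS core CCGGAAG (8.86%), an E2F-type motif TTTNNCGC (5.17%), the cAMP response element TGACGTCA (1.79%), the AP-1 motif, a STAT-type motif TTCNNNGAA (8.30%) and an NRF1-type motif (4.60%). Nothing about these factors follows from a match or its absence.

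The genes most like Parp1 by the same measure were Stk24 (root mean square difference 0.0802), Ccdc88c (0.0808), Capza1 (0.0817), Klhl5 (0.0922) and Casp8 (0.102). Stk24 measured 48.7, 38.6 and 36.7 FPKM in bleomycin replicates 1, 2 and 3, against 13.7, 16.2 and 16.5 FPKM in PBS replicates 1, 2 and 3. Like Parp1, it was highest in bleomycin replicate 1 and lowest in PBS replicate 1, a likeness for which it was picked.

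Tdp2 and Tdp1 encode tyrosyl-DNA phosphodiesterases, which free DNA ends from trapped topoisomerases. TDP2 acts on ends bound by topoisomerase 2, while TDP1 acts on those bound by topoisomerase 1 and can also remove phosphoglycolate. Tdp2 (mm10 chromosome 13, 24831679 to 24842153, plus strand) measured 13.2, 13.6 and 12.2 FPKM in bleomycin replicates 1, 2 and 3, against 7.52, 7.46 and 7.33 FPKM in PBS replicates 1, 2 and 3. Both groups were tight and did not overlap, with a coefficient of variation of 1.29% among the PBS libraries. The log2 fold change was 0.73 ± 0.14 (SE, limma adjusted p = 0.0132), with a 95% interval of 0.39 to 1.06. Without bleomycin replicate 2 the value was 0.70 and the adjusted p 0.0557, over a range of 0.00752 to 0.0557 for all 16 alternatives. With equal library medians it was 0.55 (adjusted p = 0.0339).

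Tdp1 (mm10 chromosome 12, 99884537 to 99955219, plus strand) measured 5.18, 5.33 and 6.09 FPKM in bleomycin replicates 1, 2 and 3, against 5.58, 4.57 and 6.09 FPKM in PBS replicates 1, 2 and 3. The groups overlapped, with a log2 fold change of 0.03 ± 0.17 (limma adjusted p = 0.915) and a 95% interval of -0.38 to 0.44. Its sign turned under 5 of the alternatives, the 2 scalings among them. Within a library, the ratio of Tdp2 to Tdp1 was 2.54, 2.55 and 2.00 in bleomycin replicates 1, 2 and 3, against 1.35, 1.63 and 1.203 in PBS replicates 1, 2 and 3. The groups did not overlap, and the difference of the log2 ratio was 0.76 (exact two-sided permutation test p = 0.1, adjusted p = 0.25 over 5 ratios). With 3 libraries against 3 this test cannot go below 0.1.

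Apex1 encodes the main abasic-site endonuclease, which also removes phosphoglycolate. It measured 17.0, 8.45 and 16.5 FPKM in bleomycin replicates 1, 2 and 3, against 12.4, 6.43 and 9.89 FPKM in PBS replicates 1, 2 and 3. Replicate 2 was the lowest of each group, and bleomycin replicate 2 lay below 2 of the PBS libraries. The log2 fold change was 0.49 ± 0.33 (limma adjusted p = 0.341), with a 95% interval of -0.31 to 1.29, the widest of the 8. In GENCODE release M21, Pip4p1 on the opposite strand overlaps 1072 bases of the Apex1 locus on chromosome 14 (50924968 to 50927139), and the sources used here do not say whether reads were counted by strand.

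Aptx encodes aprataxin, which removes AMP left on a break by a failed ligation. It measured 0.820, 0.506 and 1.64 FPKM in bleomycin replicates 1, 2 and 3, against 1.52, 0.570 and 0.892 FPKM in PBS replicates 1, 2 and 3. It was the lowest of the 9 genes in each group, and only 1 library of each group reached 1 FPKM, so it was not tested. Its means were 0.989 ± 0.586 FPKM with bleomycin and 0.995 ± 0.484 FPKM with PBS (SD, n = 3 each).

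**Figure D2:**
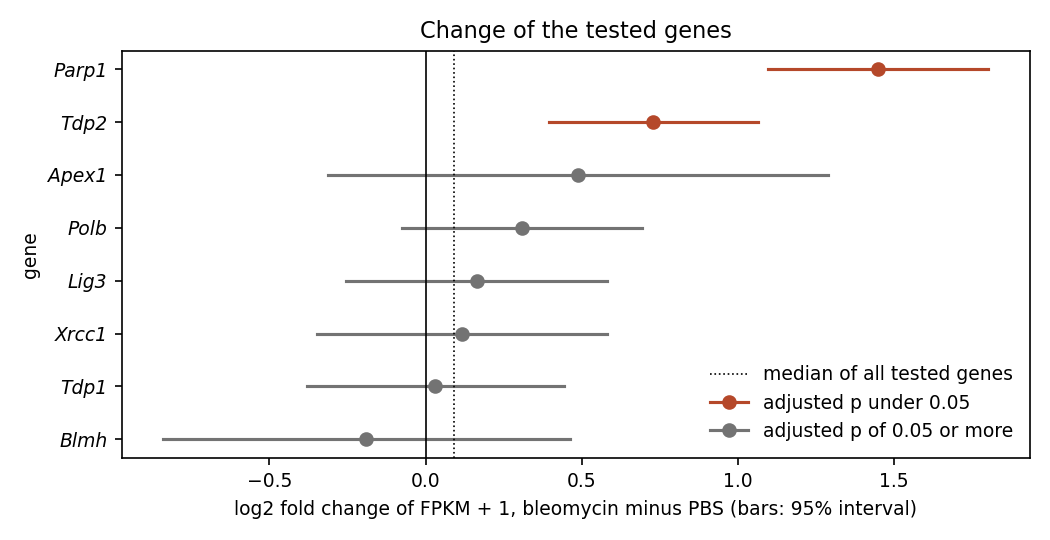
Log2 fold change of FPKM + 1, bleomycin minus PBS (horizontal axis), of the 8 tested genes (vertical axis), with 95% limma intervals as bars, genes with an adjusted p under 0.05 in red and the median of all tested genes as a dotted line. The intervals of Parp1 (1.10 to 1.80) and Tdp2 (0.39 to 1.06) lie above 0 and the other 6 include 0.

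The genes for filling and closing the gap did not pass. Xrcc1 encodes the scaffold that holds polymerase beta, ligase 3 and aprataxin at a break. It measured 10.9, 11.9 and 13.3 FPKM in bleomycin replicates 1, 2 and 3, against 14.0, 9.57 and 9.81 FPKM in PBS replicates 1, 2 and 3. The bleomycin values fell inside the PBS range, and the log2 fold change was 0.12 ± 0.19 (limma adjusted p = 0.702), with a 95% interval of -0.35 to 0.58. With equal library medians it was -0.060 and with quantile normalization -0.029.

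Polb encodes DNA polymerase beta, the gap-filling polymerase of short-patch base excision repair. It measured 19.2, 17.1 and 17.0 FPKM in bleomycin replicates 1, 2 and 3, against 13.8, 16.4 and 12.4 FPKM in PBS replicates 1, 2 and 3. Every bleomycin library was above every PBS library, although the gap between the nearest values was small. The log2 fold change was 0.31 ± 0.16 (limma adjusted p = 0.214), with a 95% interval of -0.07 to 0.69.

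Lig3 encodes DNA ligase 3, the partner of XRCC1 and the only ligase of mitochondria. It measured 3.26, 3.06 and 3.604 FPKM in bleomycin replicates 1, 2 and 3, against 2.43, 2.72 and 3.43 FPKM in PBS replicates 1, 2 and 3. PBS replicate 3 fell inside the bleomycin range, and the log2 fold change was 0.16 ± 0.17 (limma adjusted p = 0.542), with a 95% interval of -0.25 to 0.58 and a value of -0.088 with quantile normalization. In GENCODE M21, Rffl on the opposite strand overlaps 1750 bases of its locus.

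The ratios within a library, which a common factor per library leaves as they are, set these partners side by side. The ratio of Parp1 to Xrcc1 was 2.86, 2.35 and 2.04 in bleomycin replicates 1, 2 and 3, against 0.630, 1.08 and 1.07 in PBS replicates 1, 2 and 3. The groups did not overlap, and the difference of the log2 ratio was 1.41 (exact two-sided permutation test p = 0.1, the smallest possible, adjusted p = 0.25). The ratio of Xrcc1 to Lig3 was 3.34, 3.87 and 3.69 in bleomycin replicates 1, 2 and 3, against 5.75, 3.52 and 2.85 in PBS replicates 1, 2 and 3, with overlap and a log2 difference of -0.09 (exact p = 0.9). Those of Polb to Apex1 and of Aptx to Xrcc1 also overlapped, with log2 differences of -0.20 and -0.19 (exact p = 0.6 and 0.7). Each of these 3 differences changed sign when 1 library was left out: Xrcc1 to Lig3 was 0.19 without PBS replicate 1, Polb to Apex1 0.17 without PBS replicate 2, and Aptx to Xrcc1 0.20 without bleomycin replicate 2.

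**Figure D3:**
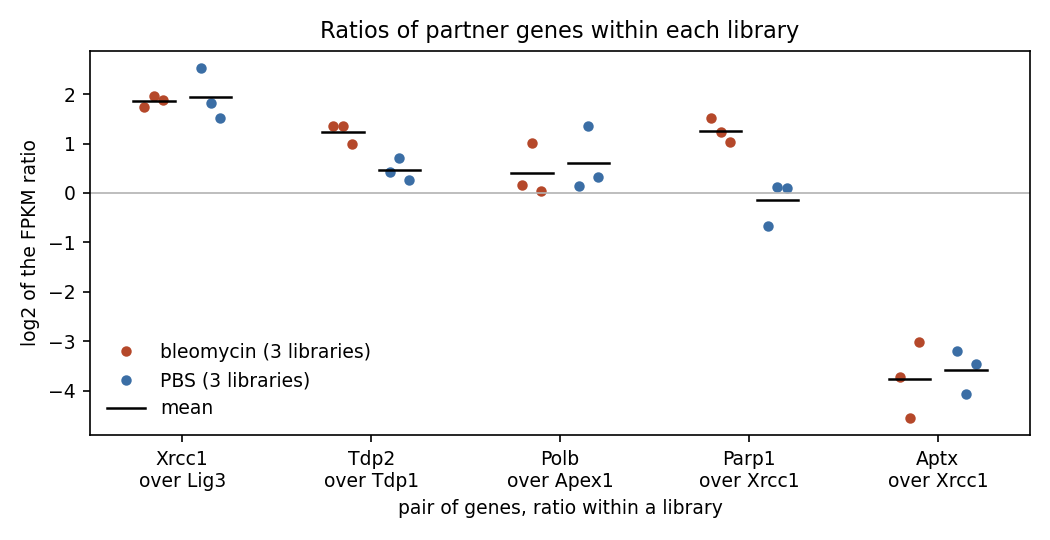
Log2 of the FPKM ratio of 5 gene pairs (horizontal axis) in each library, bleomycin in red left of PBS in blue, with lines at the mean of 3 libraries. The Parp1 to Xrcc1 and Tdp2 to Tdp1 ratios of the 2 groups do not overlap, and the other 3 do.

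In order of level, the bleomycin libraries ran Parp1 (28.7 FPKM), Polb (17.8), Apex1 (14.0), Tdp2 (13.0), Xrcc1 (12.01), Blmh (11.9), Tdp1 (5.53), Lig3 (3.31) and Aptx (0.989). The neighbours from Apex1 to Blmh overlapped in their library values, and all other neighbours were separate. The PBS libraries ran Polb (14.2 FPKM), Blmh (13.8), Xrcc1 (11.1), Parp1 (9.88), Apex1 (9.58), Tdp2 (7.43), Tdp1 (5.41), Lig3 (2.86) and Aptx (0.995). There the neighbours from Polb to Tdp2 overlapped. Parp1 was thus the highest of the 9 with bleomycin and the fourth with PBS, while Tdp1, Lig3 and Aptx were the lowest 3 in the same order in both groups. Both orders rest on the listed transcripts, and the loci of Apex1, Lig3 and Polb overlap genes on the opposite strand, for Polb the noncoding Gm26909 over 1426 bases. The Tdp1 locus overlaps a pseudogene, Gm48147, on the same strand over 351 bases. Summed, the 9 genes held 111.8, 97.1 and 112.7 FPKM in bleomycin replicates 1, 2 and 3, against 84.5, 68.1 and 73.5 FPKM in PBS replicates 1, 2 and 3. Without Parp1 the sums were 80.7, 69.2 and 85.6 FPKM with bleomycin, against 75.7, 57.7 and 63.0 FPKM with PBS, and the groups overlapped.

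The 9 genes have 16 listed transcripts: 6 genes have 1, Tdp1 has 2, and Apex1 and Lig3 have 4 each. Of 10 tested transcripts 2 passed, those of Parp1 and Tdp2 (limma adjusted p = 0.00249 and 0.0282 over 17759 transcripts), beside 14.8% of all tested transcripts. With equal library medians 1 passed, and likewise 1 without bleomycin replicate 1, bleomycin replicate 2 or any 1 PBS library. Tdp1-001 held 81.8% to 94.2% of the FPKM of Tdp1 in the bleomycin libraries and 80.4% to 99.99% in the PBS libraries. Apex1-001 held 62.5% to 79.1% of that gene with bleomycin and 64.0% to 79.4% with PBS. Apex1-002 measured 1.80, 1.44 and 1.83 FPKM in bleomycin replicates 1, 2 and 3, against 1.19, 1.02 and 0.211 FPKM in PBS replicates 1, 2 and 3, which did not overlap but did not pass either (limma adjusted p = 0.190). The split of Lig3 varied most: Lig3-001 held 48.9%, 40.3% and 72.4% in bleomycin replicates 1, 2 and 3, against 46.6%, 85.1% and 38.3% in PBS replicates 1, 2 and 3. Lig3-009 was listed at 0 in 2 libraries, Lig3-007 in 3 and Lig3-011 in 1, and none of these 3 was tested. The listed transcripts of each of these genes overlap on the genome and can share exons, so the authors' split between them is uncertain.

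**Figure D4:**
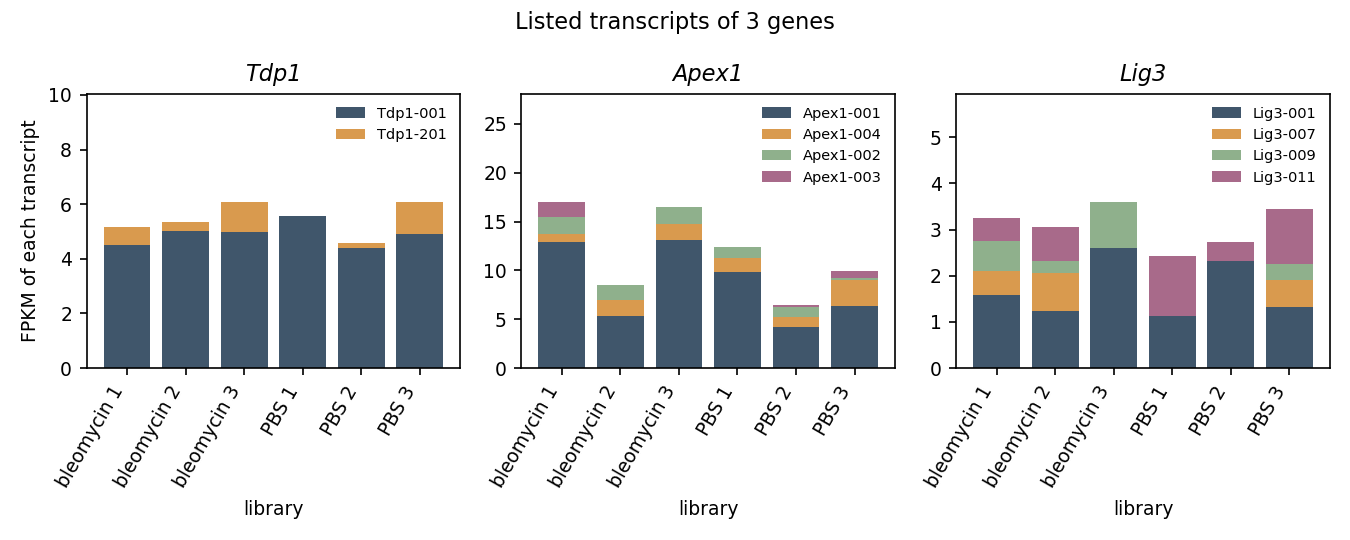
Stacked FPKM of the listed transcripts (vertical axis) of Tdp1, Apex1 and Lig3 in each library (horizontal axis, bleomycin left of PBS). Tdp1-001 and Apex1-001 make up most of their genes in all 6 libraries, and the make-up of Lig3 differs from library to library within both groups.

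Among 39 other genes of base excision and single-strand break repair, 33 were tested, of which 8 rose, 1 fell and 24 did not pass (27.3% called, beside 22.5% of all genes), with a median log2 fold change of 0.40. Those with the smallest adjusted p were Pold1, the catalytic subunit of DNA polymerase delta (0.92, limma adjusted p = 0.0150), Pcna, the sliding clamp (0.76, adjusted p = 0.0202), Rpa2, of the single-strand binding complex (0.82, adjusted p = 0.0397), and Rfc1, of the clamp loader (0.57, adjusted p = 0.0404). All 4 also serve DNA replication, and Mki67, the proliferation marker, averaged 4.95 ± 2.26 FPKM with bleomycin and 0.863 ± 0.495 FPKM with PBS (log2 fold change 1.64, limma adjusted p = 0.0138, and 0.0502 without PBS replicate 1). Pcna, and Top2a below, also belong to the list of cycling-cell markers, and the part of cycling cells in these values was not tested. Nthl1, a glycosylase for oxidised bases and the gene that fell, was named after its values were seen (-0.67, adjusted p = 0.0430, and 0.0610 to 0.108 without any 1 library). Parp2, described below, was also among the 8 risers. So were Rpa1 (0.88, adjusted p = 0.0470) and the glycosylases Neil1 (0.75, adjusted p = 0.0479) and Mbd4 (0.63, adjusted p = 0.0455). Rpa1, Neil1 and Mbd4 were named after their values were seen too. Without 1 library their adjusted p was 0.0384 to 0.126, 0.0542 to 0.138 and 0.0773 to 0.114 in that order. The number of risers was 9 with library weights, 6 to 8 with another pseudocount, FPKM minimum or variance prior, and 2 with quantile normalization or the highest transcript alone. With equal library medians 1 rose and 3 fell, and without bleomycin replicates 1, 2 and 3 and PBS replicates 1, 2 and 3 in turn 1, 2, 4, 1, 2 and 1 rose. Pold1 passed in each of the 16 alternatives, while without 1 library the adjusted p was 0.0237 to 0.0742 for Pcna, 0.0212 to 0.118 for Rpa2 and 0.0618 to 0.117 for Rfc1. The list also held Xrcc5 and Xrcc6, of the Ku complex of double-strand end joining, which did not pass (-0.10 and 0.004). Mutyh, which did not pass either, measured 0.812, 0.603 and 0 FPKM in PBS replicates 1, 2 and 3, all under the minimum of 1 FPKM. That gene was tested only through the bleomycin libraries, so a rise was the only call open to it, and its value is part of the list's median.

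Of 15 other members of the poly(ADP-ribose) polymerase family, all tested, 3 rose and none fell (20.0% called, beside 22.5% of all genes), with a median log2 fold change of 0.38. At an unadjusted limma p under 0.05, 7 were up and 1 down. Such values were common, as 4539 of the 12326 tested genes, in either direction, had a p below the 0.0503 of Dcn. Zc3hav1, an antiviral RNA-binding protein, rose by 1.46 (limma adjusted p = 0.00359) and Parp14, a mono-ADP-ribosyl transferase, by 0.96 (adjusted p = 0.00986). Parp2, the nearest relative of Parp1 in strand-break sensing and also counted among the 33, averaged 16.1 ± 1.18 FPKM with bleomycin and 10.9 ± 0.850 FPKM with PBS, with a log2 fold change of 0.52 (adjusted p = 0.0473). Its call was lost under 11 of the 16 alternatives, among them the removal of any 1 library (adjusted p 0.0801 to 0.123). Without bleomycin replicate 3, 1 gene of this family fell.

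Topoisomerases make the complexes that TDP1 and TDP2 resolve, and of 6 tested ones 2 rose and none fell, beside 15.2% of all genes called higher and 7.34% called lower. None of the 6 fell at an unadjusted p under 0.05, a count that again has no share of all genes beside it. The list also held Topbp1, a checkpoint scaffold that is not a topoisomerase. Top2a, the topoisomerase 2 of dividing cells, measured 5.69, 10.4 and 3.67 FPKM in bleomycin replicates 1, 2 and 3, against 0.665, 0.860 and 1.90 FPKM in PBS replicates 1, 2 and 3 (log2 fold change 1.77, limma adjusted p = 0.0192). Top2b, the form made in resting as well as dividing cells, averaged 35.2 ± 2.71 FPKM with bleomycin and 23.1 ± 2.87 FPKM with PBS (0.59, adjusted p = 0.0386). Topbp1 rose by 0.92 (adjusted p = 0.00873). Without bleomycin replicate 1, PBS replicate 1 or PBS replicate 2 neither topoisomerase passed, and Topbp1 passed in each of the 16 alternatives. The call of Top2b was lost under 8 of 16, among them equal library medians (0.41, adjusted p = 0.124) and every removal of 1 library other than bleomycin replicate 3 (0.0475 to 0.114 over the 6 removals). Top1, the target of TDP1, had a log2 fold change of 0.06 ± 0.19 (adjusted p = 0.843) and was named after its values were seen, as the counterpart of Tdp1.

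A list of 24 genes, mainly papain-family cysteine peptidases and cytosolic aminopeptidases, was tested in full. Of these genes 4 rose, 3 fell and 17 did not pass (29.2% called, beside 22.5% of all genes), with a median log2 fold change of -0.06. Prep, Nln and Thop1, also in the list, belong to neither kind and did not pass. The risers were led by peptidases of leukocytes: Ctss, cathepsin S of antigen-presenting cells (4.82, limma adjusted p = 0.000421), and Ctsw, cathepsin W of cytotoxic lymphocytes, which averaged 34.6 ± 9.41 FPKM with bleomycin and 0.512 ± 0.289 FPKM with PBS (4.54, adjusted p = 0.000165). Ctsw measured 0.178, 0.672 and 0.685 FPKM in PBS replicates 1, 2 and 3, all under the minimum of 1 FPKM. It was tested only through the bleomycin libraries, so a rise was the only call open to it. Ctsk, cathepsin K, rose by 1.70 (adjusted p = 0.0116). Tinag, a papain-like matrix protein without its catalytic cysteine, averaged 2.81 ± 0.610 FPKM with bleomycin and 18.4 ± 4.63 FPKM with PBS (-2.34, adjusted p = 0.000920). Its relative Tinagl1 (-1.18), Ctsc (-0.88) and Tpp2 (0.68) passed too and were named after their values were seen, with an adjusted p, without 1 library, of 0.0147 to 0.0627, 0.0335 to 0.106 and 0.0466 to 0.112 in that order. Without PBS replicate 2, 1 of the list fell. In the same libraries the median of the pan-leukocyte markers was 4.82 and that of the AT2 markers -1.82, and their part in these values was not tested.

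**Figure D5:**
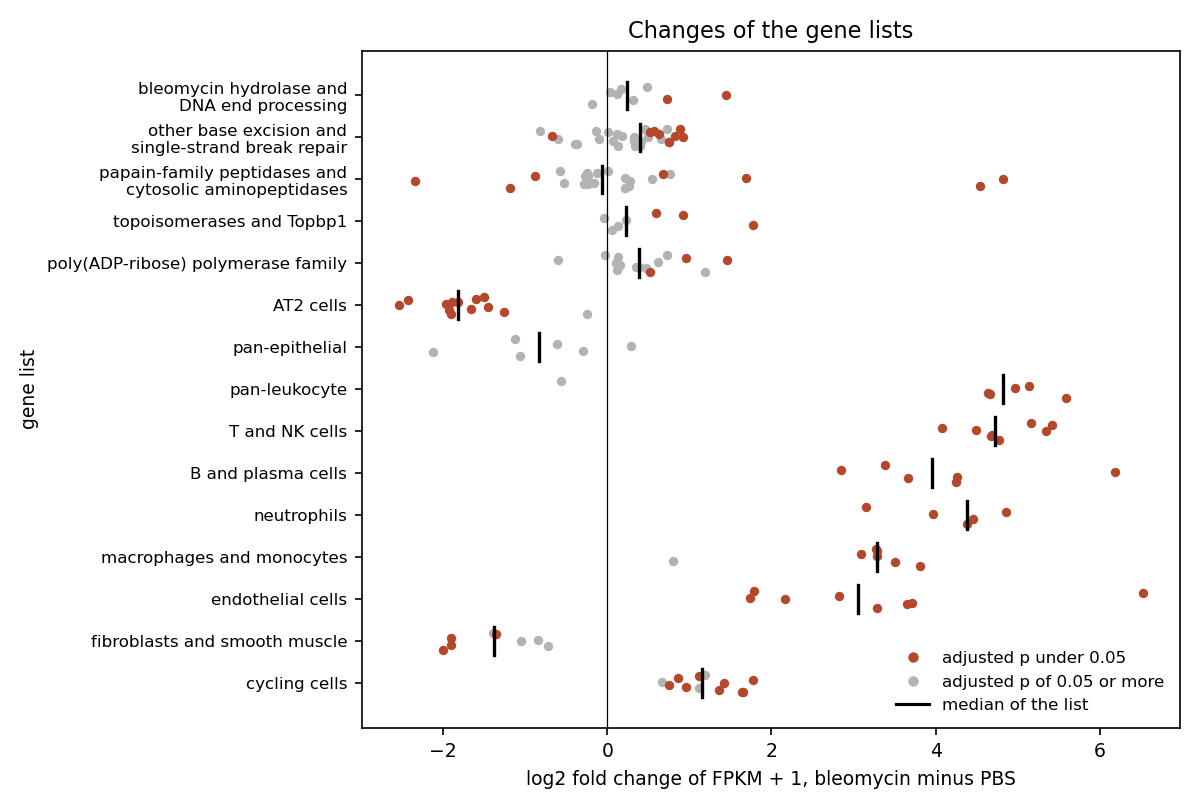
Log2 fold change of FPKM + 1, bleomycin minus PBS (horizontal axis), of each tested gene among the 9, in 4 related lists and 10 marker lists (vertical axis), with genes of an adjusted p under 0.05 in red and a line at each list's median. The 8 tested genes have a median of 0.24, the AT2 markers one of -1.82 and the pan-leukocyte markers one of 4.82.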

How the data were processed

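RNA was isolated with TRIzol and made into libraries with the KAPA stranded kit, per the labels' protocols. HISAT2, StringTie, FastQC 0.10.1 and the build mm10 are named per the submitters' processing notes, while annotation and settings are not given there. The authors deposited FPKM per transcript for each library, 24647 protein-coding transcripts of 13931 genes, per the file headers. The listed FPKM sum to 253146 to 300697 per library. Whole reads could not be recovered: of 1000 low values per library, 12.2% to 19.7% lay within 0.05 steps of a multiple of the best step, where an even spread gives 10%. The depth and the counting error are therefore unknown.

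Groups and replicate numbers came from the sample titles. FPKM were summed by gene ID, and genes (or transcripts) with 1 FPKM or more in at least 3 libraries were tested on log2(FPKM + 1) with limma 3.58.1 in R 4.3.3 (eBayes with trend, two-sided, no covariate), with Benjamini-Hochberg adjustment over all of them. Fold changes are on the log2(FPKM + 1) scale, which understates the change of low genes. A gene could pass this minimum through the libraries of 1 group. The test was checked on simulated data. Ratios were tested by exact permutation (scipy 1.17.1). Sequences are from RefSeq for GRCm38.p6, whose coordinates are those of mm10, and 7 of the 9 genes matched. Hpf1 was matched through RefSeq as 2700029M09Rik.

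The genes and lists were chosen with earlier results of these data known. Named are all 9 genes, up to 4 called genes of each related list with the smallest adjusted p, fixed markers, and the 5 genes most like Blmh and Parp1. The fixed markers not described above had log2 fold changes of -1.97 for Abca3 (limma adjusted p = 0.00166) and 5.59 for Ptprc (0.00216). Those of Pecam1 and Col1a1 were 3.28 (0.000383) and -2.00 (0.0317, and 0.0128 to 0.0933 without 1 library). Alternatives changed the pseudocount, the FPKM minimum, the scaling, the handling of transcripts, the variance prior, weights or a replicate block, or left out 1 library. Same-numbered libraries did not deviate together (correlations of -0.00431, 0.0172 and 0.0391 over tested genes).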

Additional observations from a re-analysis of the deposited data

How the results depend on the processing

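Each group has 3 libraries, and their depth is unknown. Of all genes, 1871 rose and 905 fell, against 1475 and 1412 with equal library medians and 1431 and 1441 with quantile normalization, so the share of rises was 67.4%, 51.1% and 49.8% of calls. The median log2 fold change was 0.09, -0.07 and -0.08 in these 3. Leaving out 1 library gave 1782 to 2630 calls, of which 457 to 873 fell, against 2776 and 905. The cause of these shifts was not tested.

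Parp1 passed under all 16 alternatives (log2 fold change 1.18 to 1.53), and Tdp2 under 14 (0.53 to 0.80). Of the 9 genes, 1 to 2 rose and none fell without 1 library. The replicate number as a block, which shares only a number with its namesakes, left 563 falls in all, 1 riser of the 9 genes (Tdp2 at an adjusted p of 0.0532), 2 risers and 0 falls in the repair list, 1 riser in the list of topoisomerases and Topbp1 (Topbp1), 1618 transcripts in all and 1 transcript of the 9 genes. Of 6 libraries, 3 correlated best with the library of their own number, and the block changed no other call among the 9 genes. Blmh had a log2 fold change of -0.39 to 0.025 without 1 library, above 0 without PBS replicate 1. Lig3 had -0.088 with quantile normalization. Tdp1 had -0.13 with equal medians, -0.16 with quantile normalization, -0.024 with the highest transcript alone, and -0.066 to 0.11 without 1 library, below 0 without bleomycin replicate 3 or PBS replicate 2. Xrcc1 had -0.060 with equal medians and -0.029 with quantile normalization. None of these values passed.

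In the repair list, 1 rose and 3 fell with equal medians, 2 and 3 with quantile normalization, and 2 and 0 with the highest transcript. Without 1 library 1 to 4 rose and 0 to 1 fell. With the highest transcript 1 peptidase fell, and without 1 library 1 to 2 did. In the list of topoisomerases and Topbp1 1 to 3 rose, and in the poly(ADP-ribose) polymerase family 0 to 1 fell without 1 library. Of all transcripts, 2624 were called, 1653 with a minimum of 5 FPKM, where fewer were tested, and 1620 to 2316 without 1 library. Of those of the 9 genes, 1 was called with equal medians and 1 to 2 without 1 library. The log2 ratio differences without 1 library were -0.56 to 0.20 for Aptx to Xrcc1, -0.50 to 0.17 for Polb to Apex1 and -0.31 to 0.19 for Xrcc1 to Lig3.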
